A study of Mus musculus with 16 samples.

Results

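Duodenal crypt cells of mice with high signal of both Lgr5-EGFP, a stem cell reporter, and an induced red TdTomato-BRAF(V600K) transgene (gate RG) were compared with cells of the same mice that were high for the green reporter and low for the red one (gate G). The comparison rests on 6 of the 16 Illumina bead arrays of the series, 1 RG and 1 G array from each of 3 mice, paired by mouse. A gene entered it if a named probe lay above the array median on 2 or more of these 6 arrays, and its brightest such probe by mean log2 intensity stood for it. By this rule 9295 of the 16593 named genes in the table were tested. The 496 genes just inside the rule, above the median on exactly 2 arrays, had a median level of 112.6 intensity units, and the 815 just outside it, above the median on 1 array, had 103.7.

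All mice were of a mixed B6/129S6 background, were 8 to 12 weeks old and drank doxycycline at 4 mg/ml in 1% sucrose for 24 h, so that the G cells also came from induced animals. A second line with an inducible TdTomato-luciferase transgene, also given doxycycline, was sorted into the same RG and G gates from 2 mice. Its RG and G values are given here beside those of the BRAF line, because they show how the gates differ when the red protein carries no oncogene, but line and transgene cannot be told apart. The gates R (red only) and NEG (neither colour) of the BRAF line enter only the shared estimate of spread and a few reference levels. Each array holds the sorted cells of 1 mouse. The promoter that drives the transgenes is not named in the sources used here.

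Lgr5 is a receptor for R-spondins that sits on the dividing stem cells at the crypt base, which renew the intestinal epithelium and depend on Wnt signals. Their daughters become absorptive enterocytes or one of the secretory types, namely goblet, Paneth, enteroendocrine and tuft cells. BRAF is the kinase that passes signals from RAS to MEK and then to ERK, and the V600K change keeps it active without RAS. ERK in turn induces a set of transcription factors of the FOS family, ligands of the EGF receptor, and phosphatases that switch ERK itself off.

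The gates were checked against stem cell markers. Lgr5 RNA read 182, 181 and 168 intensity units in RG cells of mice 1, 2 and 3, against 344, 244 and 596 in their G cells, and 141 and 138 in luciferase RG, against 538 and 375 in luciferase G. Its level in RG was thus below that in G in each mouse, and it overlapped with the 166.5 to 362.7 of the reporter-negative NEG cells. In the red-only R gate Lgr5 read 94.9 to 165.2, below every RG array. The RG gate was high for the EGFP reporter by its label, but its Lgr5 RNA was not set apart from that of the NEG cells. The log2 difference of RG over G was -1.06 ± 0.31 (SE; adjusted p 0.120). The array table holds 0 probes for Braf, so the transgene itself could not be checked. Across genes, arrays of 1 gate correlated at r 0.949 to 0.957 in RG and 0.972 to 0.979 in G. The RG array of mouse 3 had the highest summed intensity of the leukocyte markers among the 6 arrays, 3280 against 1669 and 1857 in the other RG arrays and 1799 to 1905 in G. Among these 6 arrays it also had the highest enterocyte and Paneth sums. The number of mice limits the precision of every value.

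In all, 207 genes, 2.23% of those tested, passed the threshold of an adjusted p under 0.05 in BRAF RG against G. Of these, 156 (1.68%) were higher and 51 (0.549%) were lower in RG, while 1247 had an unadjusted p under 0.05. The differences are of log2 intensity, with the mouse as a block in a limma fit of all 16 arrays. All 207 had the same sign in 3 of 3 mice. The paired fit selects genes whose mice agree, so this describes the calls and is no separate support. Of all genes tested, 17.7% were higher and 23.6% lower in each of the 3 mice. In size, 113 of the 156 were above 1 on the log2 scale and 16 were above 2, whereas 22 of the 51 falls were beyond 1 and 1 was beyond 2. The median over all genes was -0.03. Of the called genes, 14 higher ones never exceeded the array median in G and 16 lower ones never exceeded it in RG, and for these a lower bound of the fold is given, taken against the array median. The same was done for Tff1 and Sh2d7, whose mean in the dim gate lay below the median although 1 array lay above it. A gene dim on every array of 1 gate entered the test by the other gate alone, so the rule favoured its direction. This holds for rises such as those of Fosl1, Clu, Dhh and Tpm2 as well as for falls. As the deposited intensities include background, the log2 differences understate the change of dim genes.

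**Figure D1:**
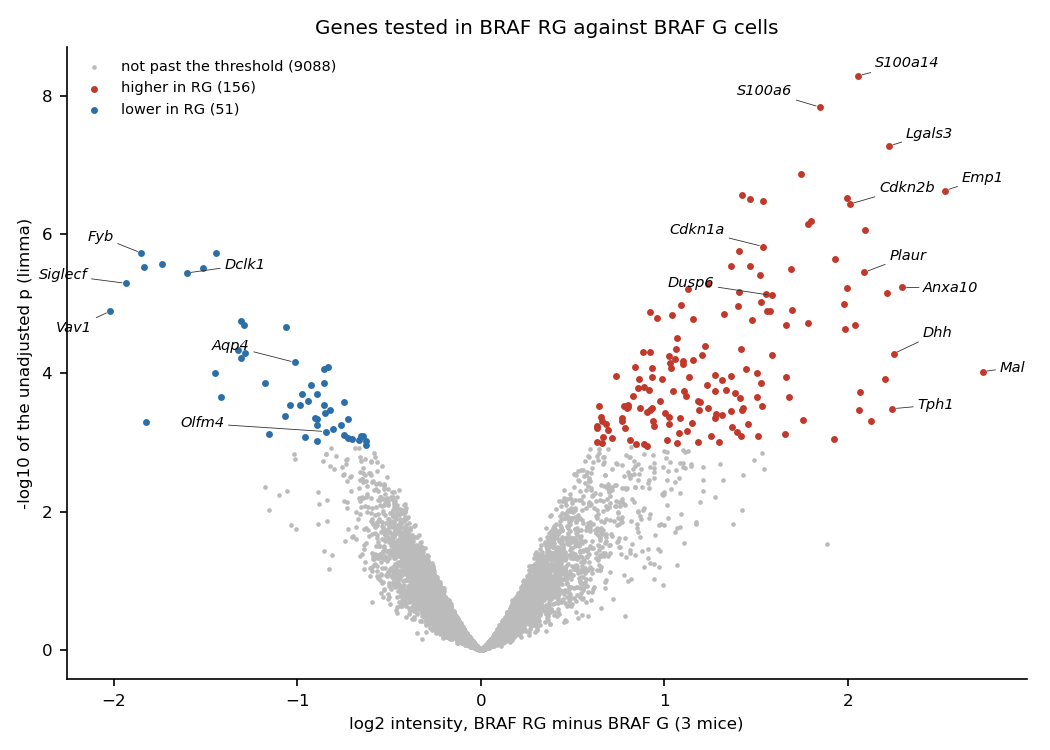
Each point is 1 of the 9295 genes tested, with the log2 intensity of BRAF RG minus BRAF G on the x axis and the -log10 of limma's unadjusted p on the y axis. Red marks the 156 genes higher and blue the 51 genes lower in RG at an adjusted p under 0.05; the rises reach 2.74 (Mal) and the falls -2.02 (Vav1).

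The number of calls depends on the mice and on the pairing. Without mouse 2 it was 47 and without mouse 3 it was 43, against 159 without mouse 1. Without the mouse as a block it was 97, all of them among the 207. With 1 mouse left out at a time, 24 genes passed in each fit, among them Emp1, Lgals3, S100a6, S100a14, Cdkn1a, Cdkn2b, Lmna, Tpm2, Dclk1, Pygl and Fyb.

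Genes of the ERK feedback and output list, which holds ERK phosphatases, ERK-induced ligands and other outputs of the pathway, were higher in RG for 8 of 23 tested members and lower for 0. For this and the lists below, the shares over all genes tested were 1.68% higher and 0.549% lower. The list's median log2 difference was 0.70, or 0.41 with dim genes at their bound, against -0.03 over all genes, and it was 0.45, 0.92 and 0.75 in mice 1, 2 and 3. Luciferase RG had 5 members of the list higher and 1 lower than luciferase G, with a median of 0.20, while 7.76% of all genes tested were higher and 11.4% lower there. Emp1, a tetraspan membrane protein, had the list's largest rise. Emp1 read 3188, 8062 and 3363 in RG cells of mice 1, 2 and 3, against 457, 1638 and 598 in G cells. Every RG array lay above every G array, and mouse 2 was highest in both gates. Its log2 difference was 2.53 ± 0.25 (SE, 3 mice; adjusted p 0.00034).

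Dusp6, a cytoplasmic phosphatase of ERK that ERK itself induces, read 3450, 8267 and 6947 in RG, against 1181, 2457 and 2529 in G. The groups did not overlap, and the difference was 1.58 ± 0.22 (adjusted p 0.00196). Dusp4, its nuclear relative, rose by 1.16 ± 0.17 (adjusted p 0.00314). In luciferase RG Dusp4 rose by 1.56 (adjusted p 0.000666) and Dusp6 by 0.93 (adjusted p 0.0311). Plaur, the receptor that gathers urokinase at the cell surface, read 280.5, 1324 and 1234 in RG, against 140.5, 195 and 217 in G. All 3 RG values were above the G values, with mouse 1 the lowest in both gates, and the rise was 2.09 ± 0.27 (adjusted p 0.00129). Fosl1, the AP-1 subunit also called Fra-1, never exceeded the array median in G, with 140.5, 441 and 356 in RG and 83.0, 89.4 and 93.6 in G. Having entered the test by its RG arrays alone, Fosl1 was at least 2.35-fold higher in RG (adjusted p 0.0117). Il1rn, the secreted antagonist of the interleukin-1 receptor, rose by 2.04 ± 0.31 (adjusted p 0.00343), and Ier3, an early response gene, by 1.43 ± 0.29 (adjusted p 0.0223).

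Other outputs of the pathway did not pass the threshold. The log2 difference was 0.94 ± 0.25 for Phlda1 (adjusted p 0.0852), 0.79 ± 0.25 for the ERK inhibitor Spry4 (adjusted p 0.158) and 0.75 ± 0.27 for the receptor kinase gene Epha2 (adjusted p 0.220). In each of these mouse 1 differed least. Without the block 3 of the 8 called list members passed, and without mouse 2 or mouse 3 the count over the list was 1 and 2. In the 6 arrays alone with the block it was 11.

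Among ligands and inhibitors of the EGF receptor, 3 of 11 tested genes were higher and 0 lower, with a median of 0.17. Luciferase RG had 2 of them higher and 3 lower, with a median of -0.23. Hbegf, a membrane-anchored ligand, read 595, 1514 and 2404 in RG, against 230, 469 and 877 in G, so that each mouse's RG value was above its own G value although the ranges overlapped between mice. The rise was 1.51 ± 0.27 (adjusted p 0.0110), and Hbegf rose by 1.04 in the luciferase line (adjusted p 0.0441). Btc, the ligand betacellulin, rose by 1.44 ± 0.26 (adjusted p 0.0100), and Errfi1, a cytoplasmic inhibitor of the receptor, by 1.52 ± 0.20 (adjusted p 0.00133). Without the block the adjusted p was 0.241, 0.266 and 0.163 for Hbegf, Btc and Errfi1. Of 14 tested immediate-early transcription factors, 3 were higher and 0 lower (median 0.46). The luciferase line had 5 higher and 1 lower (median 0.49). They were Fos, by 1.02 ± 0.22 (adjusted p 0.0268), Klf6, by 1.03 ± 0.17 (adjusted p 0.00765), and Maff, by 1.10 ± 0.19 (adjusted p 0.00845). Egr1, a direct ERK target in many cells, read 4904, 6064 and 9605 in RG and 2345, 2404 and 7105 in G, and its difference of 0.94 ± 0.24 did not pass (adjusted p 0.0716). In luciferase RG Fos rose by 1.51, Maff by 1.26 and Egr1 by 1.22, while Klf6 had a difference of 0.25 that did not pass (adjusted p 0.436). Of the 20 tested kinases and adaptors of the p38, JNK and ERK cascades, 1 was higher and 0 lower. The share of higher genes over all genes tested was 1.68%. The 1 higher gene was Mapk11, which encodes the p38 beta kinase, with 457, 824 and 408 in RG and 116, 180.5 and 115.5 in G. Every RG value was above every G value (2.00 ± 0.27, adjusted p 0.00176).

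The regeneration and YAP response list, which holds genes that mark crypts under repair, was higher for 14 of 18 tested members and lower for 0. Its median was 1.36, or 1.31 with dim genes at their bound, against -0.03 over all genes. In mice 1, 2 and 3 it was 1.44, 1.36 and 1.20. In the luciferase line 6 were higher and 0 lower, with a median of 0.33. Members of this and the other lists were chosen with earlier results of these data known, so their counts and medians are descriptive. S100a6, a calcium-binding protein, read 6107, 7618 and 5073 in RG, against 1724, 1908 and 1532 in G. The mice differed little (1.85 ± 0.15, adjusted p 6.78e-05). The same gene read 545 and 809 in luciferase RG, against 163 and 169 in luciferase G, so its level in G cells of the BRAF line was above that in both luciferase gates. S100a14, of the same family, had the lowest p of all genes, with 981, 2064 and 838 in RG against 238, 506 and 195 in G (2.06 ± 0.15, adjusted p 4.78e-05). The per-mouse differences of S100a14 were 2.04, 2.03 and 2.10.

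Annexins, which bind phospholipid membranes in a calcium-dependent way, made up 5 of these 14 genes. Anxa10 read 454, 1098 and 436 in RG, against 109, 135 and 123 in G (2.30 ± 0.31, adjusted p 0.00176), and Anxa1 read 331, 1022 and 318, against 113, 150 and 103 (1.99 ± 0.31, adjusted p 0.00375). In both genes mouse 2 had the highest RG value and no RG value fell within the G range. Anxa2 read 10680, 16415 and 9009 in RG and 3794, 5287 and 4092 in G (1.42 ± 0.14, adjusted p 0.00034). Anxa3 rose by 2.09 ± 0.24 (adjusted p 0.000625) and Anxa5 by 2.00 ± 0.21 (adjusted p 0.00034). Of 20 tested annexin and S100 genes, 10 were higher and 0 lower (median 0.81). The 5 annexins, and also S100 genes, are counted in this list and in the regeneration list. The counts of these lists are therefore not separate results. The other S100 genes called were S100a10, the partner of Anxa2 (0.92 ± 0.15), S100a11 (0.96 ± 0.14) and S100a13 (1.48 ± 0.22).

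The remaining called members of the regeneration list were Gprc5a, an orphan G protein-coupled receptor (2.21 ± 0.30, adjusted p 0.00191), the cornified envelope gene Sprr1a (1.79 ± 0.27, adjusted p 0.00343), the keratins Krt7 (1.21 ± 0.20) and Krt19 (0.64 ± 0.13), Ly6d (at least 1.54-fold higher, adjusted p 0.0475) and Clu. Clu, the secreted chaperone clusterin, marks revival stem cells in the injured mouse intestine. It never exceeded the array median in G, with 322, 183 and 191 in RG against 90.9, 103 and 80.5 in G, and was at least 1.88-fold higher (adjusted p 0.0460). Ankrd1, a direct YAP target, read 119, 109 and 133 in RG and 141, 109 and 140 in G (-0.10 ± 0.15, adjusted p 0.841). Over this list 10 genes were called without the block, 8 without mouse 2 and 7 without mouse 3.

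**Figure D2:**
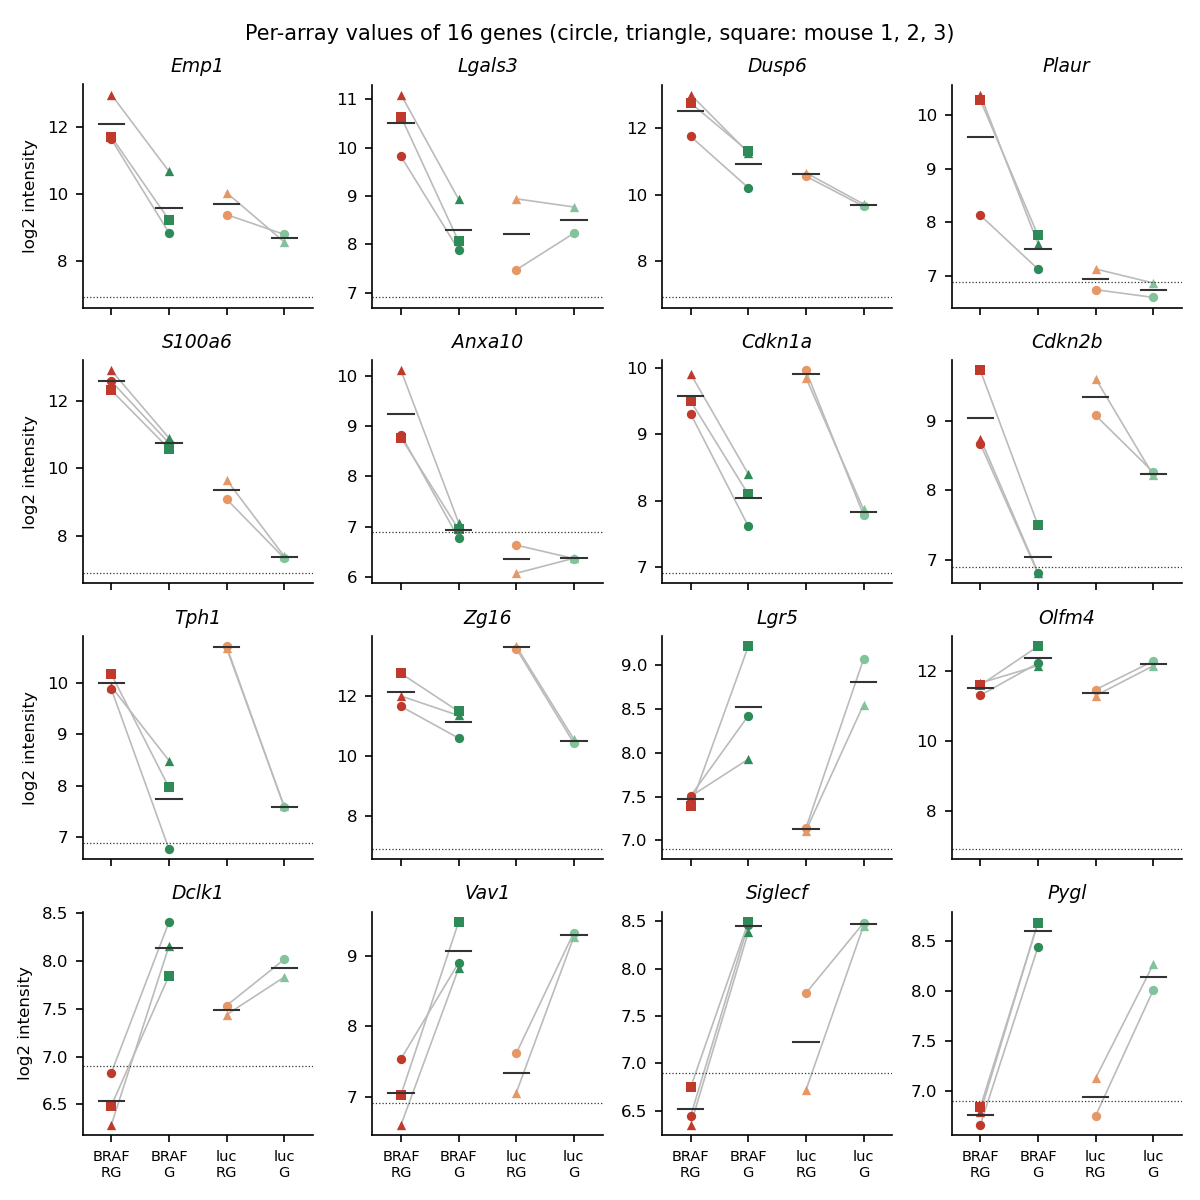
The log2 intensity of 16 genes is shown on each array of BRAF RG, BRAF G, luciferase RG and luciferase G cells; grey lines join the gates of 1 mouse, short bars are group means and the dotted line is the array median. Emp1, S100a6 and Dusp6 lie higher in all 3 BRAF RG arrays than in any BRAF G array, and Dclk1, Vav1, Siglecf and Pygl lie lower.

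AP-1, the dimer of FOS and JUN proteins, binds the letters TGANTCA, which were searched on both strands. The promoters of Emp1, Plaur, Il1rn and Anxa10 are shown because these genes had the largest rises among the called genes that carry this motif within 250 bases before to 50 bases after the start of the gene, with each match in capitals. The sequences are from RefSeq, build GRCm38.p6, written 5′ to 3′ on the gene's strand, and for Emp1 and Il1rn, with 2 and 3 listed starts, the first was used. Emp1 lies at chr6:135362681-135362980 on the plus strand, Plaur at chr7:24462233-24462532 on the plus strand, Il1rn at chr2:24336610-24336909 on the plus strand and Anxa10 at chr8:62123144-62123443 on the minus strand.
Emp1: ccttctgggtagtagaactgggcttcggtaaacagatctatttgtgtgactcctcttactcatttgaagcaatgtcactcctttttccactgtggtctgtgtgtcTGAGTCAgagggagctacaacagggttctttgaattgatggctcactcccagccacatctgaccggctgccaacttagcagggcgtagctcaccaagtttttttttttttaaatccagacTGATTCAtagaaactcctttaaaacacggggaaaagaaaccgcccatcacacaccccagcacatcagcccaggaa
Plaur: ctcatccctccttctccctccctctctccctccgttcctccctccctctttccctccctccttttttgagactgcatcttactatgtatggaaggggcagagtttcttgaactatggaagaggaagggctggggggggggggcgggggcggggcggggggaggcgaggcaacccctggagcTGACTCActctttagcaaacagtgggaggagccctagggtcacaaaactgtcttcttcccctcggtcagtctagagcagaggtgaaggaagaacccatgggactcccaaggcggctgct
Il1rn: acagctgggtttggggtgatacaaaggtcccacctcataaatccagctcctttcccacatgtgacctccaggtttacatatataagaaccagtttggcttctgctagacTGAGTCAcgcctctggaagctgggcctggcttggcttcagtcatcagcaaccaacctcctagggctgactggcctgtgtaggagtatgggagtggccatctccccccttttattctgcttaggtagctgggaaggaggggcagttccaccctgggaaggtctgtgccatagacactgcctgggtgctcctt
Anxa10: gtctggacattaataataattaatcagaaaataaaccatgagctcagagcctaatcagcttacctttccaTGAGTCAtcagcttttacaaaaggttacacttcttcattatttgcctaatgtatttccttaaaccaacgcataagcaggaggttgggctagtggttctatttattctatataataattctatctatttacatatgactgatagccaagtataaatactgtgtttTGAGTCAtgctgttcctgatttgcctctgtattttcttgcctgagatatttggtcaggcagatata
Emp1 and Anxa10 each held 2 matches and Plaur and Il1rn 1 each. The match that lies farthest upstream began 145 bases before the start of Emp1, 69 before that of Plaur, 141 before that of Il1rn and 180 before that of Anxa10. The motif was present in 7.93% of the 27025 promoters in the table and in 5.15% of the 7629 that belong to genes tested here. A share over all 156 higher genes is void, because only 120 of them had an entry. A match is a description of the letters and does not show that a factor binds there.

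Several of the largest rises, those of Mal, Dhh and Tff1, belonged to no list. Mal, a tetraspan protein of apical membrane sorting, rose most of all genes measured in both gates, with 712, 4012 and 315 in RG, against 90.6, 356 and 94.0 in G. The range between mice was wide, and the RG value of mouse 3 was below the G value of mouse 2 (2.74 ± 0.49, adjusted p 0.0107; 0.361 without the block). Dhh, the ligand Desert hedgehog, was dim on all G arrays and was at least 3.30-fold higher in RG, with 291, 1047 and 202 in RG and 83.5, 92.9 and 73.7 in G (adjusted p 0.00741). Tff1, a trefoil peptide of the gastric surface mucus, read 716, 773.5 and 252 in RG, against 114, 104 and 140 in G. RG was above G throughout, with mouse 3 the smallest difference, and it was at least 4.11-fold higher (adjusted p 0.0286). Lgals3, the sugar-binding lectin galectin-3, was the 1 of 26 tested adhesion genes that was higher, with 901, 2186 and 1596 in RG against 236, 488 and 266 in G (2.23 ± 0.20, adjusted p 0.000164). Its groups did not overlap. As 1.68% of all genes tested were higher, 1 call in 26 does not set the adhesion list apart.

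Of 24 tested actin and myosin genes, 4 were higher and 0 lower (median 0.35). Tpm2, a tropomyosin that winds along actin filaments, was dim in G and at least 2.84-fold higher in RG, with 363, 335 and 322 in RG against 95.3, 116 and 87.1 in G (adjusted p 0.000553). Capg, which caps actin filaments, rose by 1.69 ± 0.22 (adjusted p 0.00121), Capn2, a calcium-dependent protease subunit, by 1.59 ± 0.27 (adjusted p 0.00751), and Tmsb10, which binds actin monomers, by 0.83 ± 0.16 (adjusted p 0.0176). Lmna, which encodes the nuclear lamins A and C, read 1570, 2446 and 1586 in RG, against 662, 709 and 532 in G (1.54 ± 0.16, adjusted p 0.00034). Of 19 tested proteases and inhibitors, 5 were higher and 0 lower (median 0.20): Plaur, the lysosomal protease Ctsl (at least 1.73-fold), Timp3, an inhibitor of metalloproteinases (1.19 ± 0.25), and the serpins Serpinb1a (0.84 ± 0.15) and Serpinb6a (0.94 ± 0.17). Of 9 tested keratins, Krt7, Krt8, Krt19 and Krt20 were higher and 0 were lower (median 0.64). Of 15 tested tight junction genes, 1 was higher, Cldn23 (1.74 ± 0.17, adjusted p 0.000313), and 0 were lower. With 1.68% of all genes tested higher, 1 call in a list of this size does not set it apart.

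Inhibitors of the cell cycle were higher for 5 of 13 tested genes and lower for 0, with a median of 0.42. Among all genes tested 1.68% were higher and 0.549% lower. Cdkn1a, which encodes the CDK inhibitor p21, read 635, 964 and 725 in RG, against 196, 338 and 273 in G (1.54 ± 0.18, adjusted p 0.000998). Cdkn2b, which encodes p15, read 408, 431 and 851 in RG, against 112, 113 and 181 in G (2.01 ± 0.21, adjusted p 0.00034). In both genes the groups did not overlap. Luciferase cells read 543 and 785 for Cdkn2b in RG against 308 and 298 in G, a rise of 1.11 (adjusted p 0.0114). The G level of Cdkn2b was lower in the BRAF line, and its difference between the lines, 0.90, did not pass (adjusted p 0.177). Cdkn1c, which encodes p57, rose by 1.07 ± 0.25 (adjusted p 0.0467), Btg2 by 1.10 ± 0.19 (adjusted p 0.00906) and Gadd45g by 0.91 ± 0.19 (adjusted p 0.0234). Cdkn1a and Btg2 are also among the 17 tested p53 targets, of which 3 were higher and 0 lower (median 0.01), the third being Perp, a desmosome protein (0.67 ± 0.15, adjusted p 0.0415). Mdm2, a p53 target and its inhibitor, read 1241, 2345 and 2226 in RG and 1566, 1273 and 1849 in G (0.27 ± 0.22, adjusted p 0.660). In the luciferase line 8 of the 13 cell cycle inhibitors were higher and the median was 1.10. The difference between the lines passed for 0 of the 13, against 2.24% of all genes tested. A count of 0 near that share does not show that the lines moved alike.

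Genes of the division machinery did not pass the threshold in the BRAF line. Of 31 tested DNA replication genes 0 were called, with a median of -0.24. Of these 31, 19 were lower in 3 of 3 mice, against 23.6% of all genes tested. Of 26 tested mitosis genes 0 were called, with a median of -0.01 (limma, as above). As 2.23% of all genes tested were called, 0 calls in lists of this size lie near that share. In the luciferase line 23 of the 31 were lower, with a median of -0.89, and 19 of the 26, with a median of -0.92. The difference between the lines passed for 2 genes of each list, against 2.24% of all genes tested. E2f1, a factor of S phase entry, read 416, 273 and 231 in RG and 475, 468 and 343 in G (-0.51 ± 0.22, adjusted p 0.336), and Top2a, a topoisomerase of dividing cells, read 464, 504 and 509 in RG and 453, 577 and 817 in G (-0.28 ± 0.19, adjusted p 0.588).

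Stem cell genes were lower in RG for 2 of 25 tested members and higher for 0, with a median of -0.52 against -0.03 over all genes. The share of lower genes over all genes tested was 0.549%. In the luciferase line 13 of the 25 were lower, against 11.4% of all genes tested, with a median of -0.85. The difference between the lines passed for 0 of the 25, near the 2.24% of all genes tested. Olfm4, a secreted glycoprotein of crypt base cells, read 2519, 3213 and 3073 in RG, against 4768, 4528 and 6658 in G. The groups did not overlap, and Olfm4 fell by 0.84 ± 0.19 on the log2 scale (adjusted p 0.0367). Aqp4, a water channel gene, fell by 1.01 ± 0.18 on that scale (adjusted p 0.00883). In all, 20 of the 25 were lower in 3 of 3 mice, and most did not pass, among them Axin2, a Wnt feedback gene (-0.84 ± 0.26, adjusted p 0.145), and Rgmb (-0.86 ± 0.22, adjusted p 0.0691). Of 13 tested Wnt targets 0 passed, against 2.23% of all genes tested, with a median of -0.31. In the luciferase line 6 of the 13 were lower, with a median of -0.47. Without the block 1 stem cell gene was called, and without mouse 2 or mouse 3 the count was 0.

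Of the lists, that of tuft cells held the most falls. Tuft cells are the chemosensory cells of the gut lining. Of 27 tested tuft genes 15 were lower in RG and 0 higher, with a median of -1.10, and -0.97, -1.23 and -0.93 in mice 1, 2 and 3. With the 12 genes that were dim in 1 gate at their bound, the median was -1.0029. A gene dim on all RG arrays entered the test by its G arrays alone, so the rule favoured a fall for such genes. In sorted fractions measured in bulk, fewer cells of a type and less RNA per cell cannot be told apart. Dclk1, a kinase that marks these cells, read 114, 78.0 and 89.7 in RG, against 340, 285 and 230 in G, and was at least 2.36-fold lower (adjusted p 0.00129). Vav1, a guanine exchange factor shared by tuft cells and blood cells, read 186, 96.7 and 130 in RG, against 480, 454 and 717 in G (-2.02 ± 0.29, adjusted p 0.00273). The RG and G arrays did not overlap for either gene.

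For Siglecf, a sialic acid receptor, the fall was at least 2.92-fold (adjusted p 0.00169). For Pygl, a glycogen phosphorylase, it was at least 3.25-fold (adjusted p 0.00121), and for the taste transduction channel gene Trpm5 at least 2.16-fold (adjusted p 0.00705). Fyb, an adaptor of blood cells and tuft cells, fell by 1.85 ± 0.22 on the log2 scale (adjusted p 0.00102), and Alox5ap, the helper protein of leukotriene synthesis, by 1.45 ± 0.18 (adjusted p 0.00102). Pou2f3, the transcription factor required for tuft cells, never exceeded the array median in RG and exceeded it on 2 of the 3 G arrays, with 65.2, 78.6 and 74.4 in RG against 104, 137 and 119.9 in G. It was lower in 3 of 3 mice (adjusted p 0.0420), and no fold is given. The other 7 called were Bmx (-1.83 ± 0.39), Lrmp (at least 2.38-fold lower), Avil (-1.45 ± 0.26), Kctd12 (-1.41 ± 0.28), Rgs13 (at least 2.00-fold lower), Sh2d7 (at least 2.17-fold lower) and Spib (-0.99 ± 0.20). Summed over the list, tuft intensity was 5615 to 6466 in RG, against 11321 to 12235 in G. Vav1 and Fyb are also genes of blood cells. Of the 38 leukocyte markers 12 were tested and 0 called, against 2.23% of all genes tested, with a median of 0.05. Without the block 11 of the 15 tuft calls were kept, without mouse 2 the count was 6 and without mouse 3 it was 7.

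Among other falls outside the lists were Esam, an endothelial cell adhesion molecule (-1.31 ± 0.20, adjusted p 0.00321), Ccdc3, a secreted protein (-1.29 ± 0.20, adjusted p 0.00343), and Gcnt1, which branches mucin-type sugar chains (-1.16 ± 0.26, adjusted p 0.0387). Tspan6, a tetraspanin, was the 1 lower gene of the adhesion list, with 156, 136 and 126 in RG, against 474, 450 and 467 in G (-1.74 ± 0.22, adjusted p 0.00121).

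**Figure D3:**
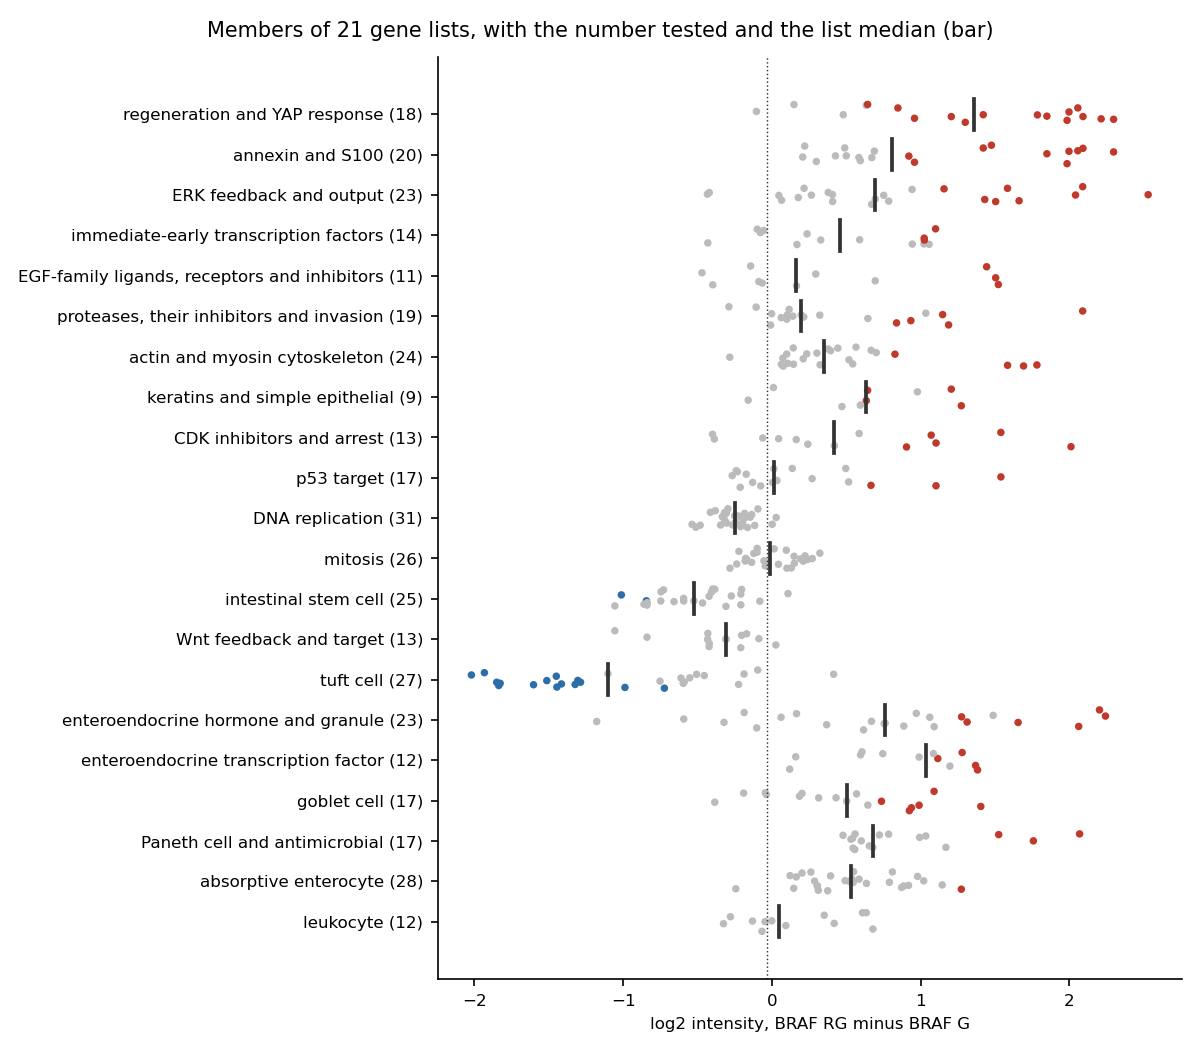
Each point is a tested member of 1 of 21 gene lists, placed by its log2 intensity in BRAF RG minus BRAF G; red and blue points passed the threshold, bars are list medians and the dotted line is the median of all genes, -0.03. The regeneration and YAP list has the highest median, 1.36, and the tuft cell list the lowest, -1.10.

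Some genes of the other secretory lineages were higher in RG. Of 23 tested enteroendocrine hormone and granule genes 6 were higher and 0 lower (median 0.76), and of 12 enteroendocrine transcription factors 4 were higher and 0 lower (median 1.04). In the luciferase line 14 of the hormone genes and 11 of the factors were higher and 0 lower, with medians of 1.87 and 2.38. Tph1, the enzyme that starts serotonin synthesis in enterochromaffin cells, read 940, 971 and 1149 in RG, against 109, 360 and 251 in G (2.24 ± 0.46, adjusted p 0.0224), and Tac1, the precursor of substance P, read 1378, 1101 and 1363, against 188, 477 and 316 (2.06 ± 0.43, adjusted p 0.0228). RG arrays were above G arrays for both, with mouse 2 the smallest difference. Sct, the hormone secretin, rose by 1.31 ± 0.24 (adjusted p 0.0122), Bex2 by 2.20 ± 0.40 (adjusted p 0.0121), the granule protein gene Scg2 by 1.66 ± 0.38 (adjusted p 0.0390), and Gal, the neuropeptide galanin, was at least 1.48-fold higher (adjusted p 0.0269).

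Neurog3, the factor that commits cells to this lineage, read 496, 982 and 495 in RG, against 298, 381 and 208 in G (1.12 ± 0.22, adjusted p 0.0178). Neurod1 (1.38 ± 0.27), Nkx2-2 (1.28 ± 0.27) and Insm1 (1.37 ± 0.30), which act after it, were also called. Gip, the incretin of K cells, had a difference below 0 that did not pass, with 775, 520 and 1074 in RG and 1432, 2172 and 1612 in G (-1.18 ± 0.34, adjusted p 0.114). Of these calls 4 of the 6 hormone genes and 1 of the 4 factors were kept without the block. Without mouse 3 both counts were 0, and without mouse 2 they were 3 and 0.

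Of 17 tested goblet cell genes 6 were higher and 0 lower (median 0.50). Zg16, a lectin of the mucus, read 3213, 4082 and 6872 in RG, against 1543, 2604 and 2858 in G (0.99 ± 0.18, adjusted p 0.0121). The other 5 were Tff3 (0.74 ± 0.13), Agr2, which folds mucins (0.93 ± 0.14), Bcas1 (1.41 ± 0.19), the peptide hormone gene Guca2a (1.09 ± 0.16) and Sytl2 (0.94 ± 0.20). Without the block 0 of these passed. Of 17 tested Paneth and antimicrobial genes 3 were higher and 0 lower (median 0.68), among them Ang4, an antimicrobial ribonuclease, with 1610, 1212 and 1997 in RG, against 305, 718 and 458 in G (1.76 ± 0.38, adjusted p 0.0285), and Cd177, with 1788, 981 and 1383 in RG, against 247, 365 and 363 in G (2.07 ± 0.40, adjusted p 0.0159). Nupr1, a stress-induced nuclear protein, was the third (1.53 ± 0.28). Cd177 did not follow the list's summed intensity, which was 15320, 47296 and 85054 in RG of mice 1, 2 and 3. It was highest in RG of mouse 1, where that sum was lowest. Of 28 tested enterocyte genes 1 was higher, Krt20 (1.27 ± 0.24, adjusted p 0.0159), and 0 lower, with a median of 0.53. That count lies near the 1.68% of all genes tested that were higher. In luciferase RG 8 of the Paneth genes and 14 of the enterocyte genes were higher and 0 lower, with medians of 1.45 and 1.02. In mouse 3 the enterocyte median was 1.06 and the Paneth median 1.53, against 0.17 and 0.31 in mouse 1. The leukocyte median was 0.65 in mouse 3 and -0.07 in mouse 1, and the part of the cells' mixture in these values was not tested.

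**Figure D4:**
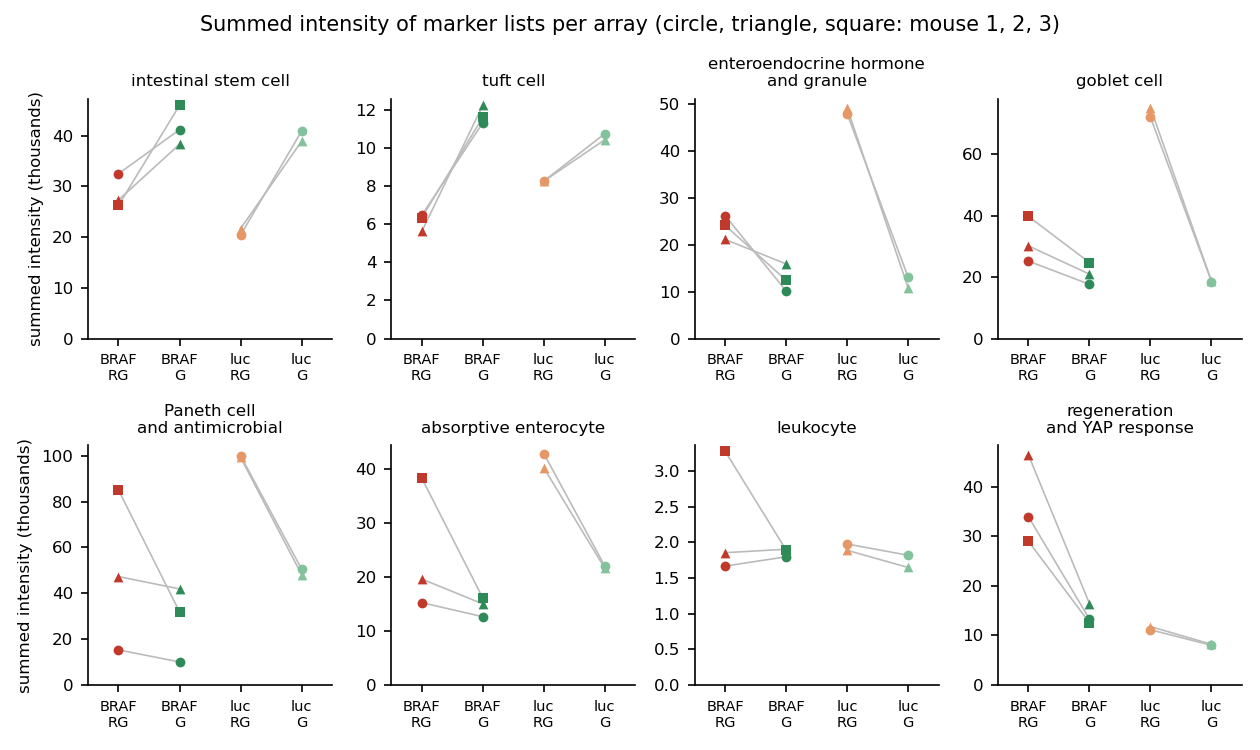
The summed intensity of the tested members of 8 lists is shown for each array; grey lines join the gates of 1 mouse, and the numbering of mice is separate in the 2 lines. Tuft sums lie at 5615 to 6466 in BRAF RG and at 11321 to 12235 in BRAF G, and among the 6 BRAF arrays the enterocyte, Paneth and leukocyte sums are highest in RG of mouse 3. The enterocyte and Paneth sums of both luciferase RG arrays lie above that array.

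Set beside the luciferase line, the comparison shows which genes differed between the gates in both. In luciferase RG against G, 1779 genes passed, 721 (7.76%) higher and 1058 (11.4%) lower. The spread behind these calls, and behind the test between lines, was estimated over both lines together, with most arrays from the BRAF line. The p-values therefore do not describe how the luciferase mice alone vary. Without BRAF mouse 1, 2 or 3 the luciferase count was 1808, 1343 and 1071. Of the 156 genes higher in BRAF RG, 81 (51.9%) were also higher in luciferase RG, which is 11.2% of the 721, while 3 were lower and 72 did not pass. Of the 51 lower ones, 29 (56.9%) were also lower in luciferase RG, which is 2.74% of the 1058. The difference between the lines in the change of RG over G was itself tested, and 208 genes (2.24%) passed, 114 (1.23%) with a change higher in the BRAF line and 94 (1.01%) with a lower one. Among the 207 genes called in the BRAF line 38 passed this test.

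Of the 156 risers, 22 rose more in the BRAF line. Tns4, a tensin that links integrins to the cell interior, moved in opposite directions, with 1028, 2193 and 786 in BRAF RG against 376, 603 and 509 in BRAF G, and 148 and 121 in luciferase RG against 453 and 640 in luciferase G. The difference between the lines was 3.33 ± 0.44 on the log2 scale (adjusted p 0.00537). Lgals3 differed by 2.52 ± 0.31 (adjusted p 0.00351), with 177 and 491 in luciferase RG and 300 and 437 in luciferase G. Anxa10, Anxa1 and Mapk11, none of which exceeded the median of any of the 4 luciferase arrays, differed by 2.31, 2.19 and 2.07, Tpm2 by 2.11 and Ier3 by 2.05. The S100 genes S100a10, S100a11 and S100a14 differed by 1.10, 1.04 and 1.07. For S100a6 the difference was -0.15 (adjusted p 0.766), since it rose by 2.00 in the luciferase line too. Emp1 rose by 1.04 in the luciferase line too (adjusted p 0.0361). Its difference between the lines, 1.4952, did not pass (adjusted p 0.0725), and neither did that of Dusp6, 0.66 (adjusted p 0.342).

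The other 14 risers that passed rose less in the BRAF line, and goblet genes led them. Zg16 read 12220 and 12862 in luciferase RG and 1377 and 1506 in luciferase G, and its rise in the BRAF line was smaller by 2.13 ± 0.29 (adjusted p 0.00537). Bcas1 and Clca1, a secreted protein of goblet mucus, were smaller by 2.20 and 2.00. Over the goblet list 15 of 17 genes were higher in luciferase RG, with a median of 1.86, and the difference between the lines passed for 14 of 17, all lower in the BRAF line. It passed for 2 of 23 enteroendocrine hormone genes and 2 of 12 enteroendocrine factors, also lower in the BRAF line. For tuft genes the count was 0 of 27, near the 2.24% of all genes tested, and 12 of the 27 were lower in luciferase RG. Of the 51 falls, 2 passed, Reep5 and Chek1, which are named here after their values were seen. Reep5 fell by 0.89 in the BRAF line against a luciferase difference of 0.54, and the checkpoint kinase gene Chek1 by 0.63 against -1.90.

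These line differences rest on few mice. Of the 38 genes 2 still passed without BRAF mouse 2 (Bcas1 and Tpm2), 7 without BRAF mouse 3, 29 without BRAF mouse 1, and 12 and 16 without luciferase mouse 1 or 2. Without the block 5 passed, and all 38 kept their sign in each of these fits. Of the 23 ERK list genes, 2 had a change higher in the BRAF line and 1 a lower one, and of the 18 regeneration genes 4 had a higher and 0 a lower one.

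**Figure D5:**
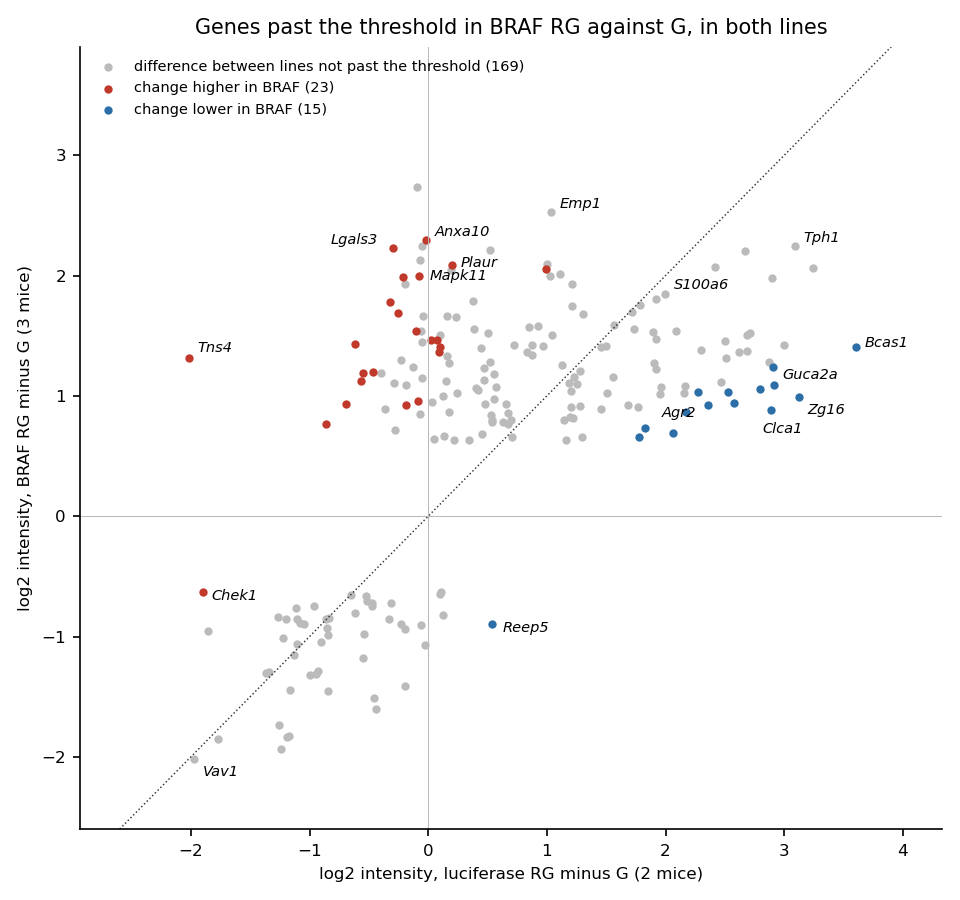
Each point is 1 of the 207 genes called in BRAF RG against G, with its log2 difference in the BRAF line on the y axis and in the luciferase line on the x axis; the dotted line marks equal changes. Red points (23) had a change higher and blue points (15) a change lower in the BRAF line by the test between lines, and goblet genes such as Zg16 and Bcas1 lie far to the right.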

How the data were processed

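RNA of sorted duodenal crypt cells was measured on Illumina bead arrays. The deposited values are linear intensities, made with GenomeStudio per the submitters' processing notes. Their sorted values differed by at most 1.2 units between arrays, with array medians of 118.9 to 119.9, so the arrays shared 1 distribution, and the lowest value of 55.7 shows that they include background. Of 25697 probes, 23978 had 1 gene symbol, 0 had several and 1719 had none; 23962 matched a RefSeq gene by Entrez ID. A further 32 columns of non-normalized signals and detection p-values carry no label of a sample and were not used.

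Log2 intensities were fitted by limma 3.58.1 under R 4.3.3 (moderated linear models, Benjamini-Hochberg adjustment over 9295 genes, threshold 0.05). All 16 arrays in 6 groups entered, with the mouse as a fixed block (7 residual degrees of freedom, 5.69 prior). Per the labels, the arrays of 1 line and number come from the same mouse. Deviations from group means correlated at 0.393, 0.315 and 0.384 between RG and G of the same mouse and at -0.116 to -0.247 between different mice. Tested on simulated data, the fit recovered 82 of 100 genes changed by 1 and 100 of 100 changed by 2 on the log2 scale. It made 6 false calls among the unchanged genes of the 9295. The simulated arrays had equal spread within a gene, whereas the weights estimated for the real arrays ran from 0.271 to 3.73. These rates may therefore not hold for the real arrays.

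Genes named are the 15 largest rises and falls measured in both gates, the 8 highest bounds in each direction, the 10 lowest p-values, called members of 35 gene lists with up to 4 others, the 10 largest called differences between lines, Lgr5, Actb and Gapdh. Some called genes outside these are named where stated. The members and lists were chosen with earlier results of these data known. A gene's other probes moved the opposite way for 4 of the 56 called genes with several probes. Alternatives were the block, the arrays in the fit, the filter, the probe rule, background subtraction, cyclic loess, array weights and leaving out each mouse.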

Additional observations from a re-analysis of the deposited data

Results flagged for a closer look

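For 27 genes named by the stated rule, and for Reep5 and Chek1, which were named after their values were seen, the change of RG over G differed between the BRAF and the luciferase line in a test of that difference (limma, adjusted p under 0.05; 2.24% of all genes tested passed). All values are the BRAF change minus the luciferase change on the log2 scale. Values above 0 were found for Tns4 (3.33), Lgals3 (2.52), Anxa10 (2.31), Anxa1 (2.19), Tpm2 (2.11), Mapk11 (2.07), Ier3 (2.05), Capg (1.94), Plaur (1.89), Timp3 (1.74), Lmna (1.64), the carboxylesterase gene Ces2a (1.39), S100a10 (1.10), Chek1 (1.27), S100a14 (1.07) and S100a11 (1.04). Values below 0 were found for goblet genes, namely Rep15 (-2.44), Bcas1 (-2.20), Zg16 (-2.13), Clca1 (-2.0), Guca2a (-1.82), Spink4 (-1.69), Sytl2 (-1.64), Agr2 (-1.43) and Tff3 (-1.09), and for Gfi1 (-2.24) and Spdef (-1.67), transcription factors of secretory cells. The hormone gene Gip (-2.26) and Reep5 (-1.43) also lay below 0.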

How the results depend on the processing

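Each of the 109 called genes named kept its sign in each fit run that tested it. The counts did not hold. Of the 207 calls in BRAF RG against G (156 higher, 51 lower), the fit with no replicate block gave 97 (67 and 30), the 6 arrays alone 108 (76 and 32) with no block and 317 (237 and 80) with the replicate block, array weights 568 (362 and 206), and leaving out the 3 BRAF R arrays, chosen after seeing the data, 346 (248 and 98). Requiring 6 of 6 arrays above the median left 25 lower genes, with fewer genes tested. With 1 mouse left out the counts ranged from 43 to 205 (34 to 155 higher, 9 to 50 lower). The 1779 luciferase calls were 980 with array weights and 722 to 1808 with 1 mouse left out. The 208 line differences were 39 with no replicate block, 119 after background subtraction, 544 without the R arrays and 6 to 200 with 1 mouse left out. Of the list medians named, those of p53 targets, mitosis, leukocyte, heat shock, glycolysis and interferon genes, all near 0, changed sign in at least 1 fit, as did Mdm2. The cause of these shifts was not tested. A random block, cyclic loess, the filter and probe rules other than as above, and background subtraction for the other counts kept each within 1.5 times. The pairing comes from the labels. Of the 109 called genes named, 58 passed without the block. Signal over background limits the dim genes, and 3 and 2 mice limit every value.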

Other observations

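Glutathione transferases were the called genes of the NRF2 and glutathione list, of which 3 of 19 tested members were higher in BRAF RG and 0 lower (median 0.05). Gsta1, Gsta2 and Gsta4, which join glutathione to reactive compounds, rose by 1.40 ± 0.20, 1.70 ± 0.25 and 1.56 ± 0.23 on the log2 scale (SE; limma, adjusted p 0.00248, 0.00273 and 0.00273). They rose by 1.45, 1.72 and 1.73 in the luciferase line too. Without mouse 3 the list had 0 calls. Of 16 tested NF-kB and cytokine genes, Il1rn and the membrane-bound chemokine gene Cxcl16 were higher (2.04 and 1.55), and Ccl28, a chemokine of mucosal surfaces, was lower (-0.76). In 5 further lists, namely glycolysis, cholesterol and fatty acid synthesis, the unfolded protein response, interferon response and heat shock, 0 genes were called by limma. The share over all genes tested was 2.23%. The medians of these lists were 0.16, 0.06, 0.17, 0.04 and -0.09. Over all genes 1247 had an unadjusted p under 0.05.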
